A study of Mus musculus with 6 samples.

Results

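Collagens are the structural proteins of the extracellular matrix, each built from 3 α chains wound into a triple helix, and every chain has its own gene. The 44 genes described here are all those of the deposited tables whose mouse symbol has the form of a collagen chain (Col, a type number, a and a chain number), out of 24520 genes. They were grouped by the kind of structure the chains build: 11 fibrillar chains, 8 basement membrane chains and 25 other chains. RNA came from lung endothelial cells, the lining cells of blood vessels, isolated by flow sorting from mice with the genotype wt (3 libraries labelled WT) or ko for Dnmt3a (3 libraries labelled KO). Dnmt3a encodes an enzyme that sets new DNA methylation. The labels name no strain, age, treatment, Cre driver or sort gate, and no source used here says whether each library came from its own animal, so p-values measure the spread between these libraries, which may be technical in part.

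Fibrillar collagens (types I, II, III, V, XI, XXIV and XXVII) assemble into the cable-like fibrils of connective tissue and are made mainly by fibroblasts and other mesenchymal cells. Type IV collagen forms the sheet-like network of the basement membrane under every endothelium, and endothelial cells make it themselves. Collagen chains are hydroxylated and folded in the endoplasmic reticulum with dedicated enzymes and the chaperone HSP47, leave the cell in oversized vesicles, are trimmed outside the cell and are then cross-linked.

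The 6 libraries held 28136194 to 39999172 estimated counts. Levels compared between libraries are given as CPM, counts relative to the library total scaled with TMM factors, and levels compared between genes as the authors' TPM values, which allow for transcript length. Endothelial genes were abundant in every library: 8 endothelial markers, among them Pecam1 and Cdh5, summed to 10074 to 11848 CPM under WT and 9865 to 11239 CPM under KO. The targeted gene ran against the labels, since Dnmt3a averaged 35.3 ± 3.098 CPM under the WT label and 165 ± 6.45 CPM under the KO label (± SD, 3 libraries each). The sum over the whole gene does not show whether an exon is missing. Directions are therefore those of the libraries labelled KO over those labelled WT, and all fold changes, standard errors (SE) and adjusted p-values come from edgeR's quasi-likelihood test over 14667 genes. Xist and Y-linked transcripts read replicate 1 of each label as female and replicates 2 and 3 as male. Values listed in groups of 3 are those of replicates 1, 2 and 3, in that order.

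The collagen RNA of these cells was dominated by the chains of the endothelial basement membrane. Col4a1, the α1 chain of type IV collagen, was at 699 ± 83.01 TPM under WT and 621 ± 83.4 TPM under KO (mean ± SD, n = 3), and ranked 220 of all 24520 genes by mean TPM. Its partner Col4a2, the α2 chain, was at 382 ± 37.2 and 356 ± 63.4 TPM and ranked 414. Next came Col5a2 with a mean of 54.6 TPM over the 6 libraries, Col3a1 with 28.8, Col1a2 with 24.7, Col1a1 with 19.7 and Col6a1 with 18.96 TPM. These 7 chains were the ones at 10 TPM or more in all 6 libraries. At least 1 TPM in all 6 was reached by 14 of the 44 chains, while 26 stayed below 1 TPM in every library and 4 lay on both sides. A count of 0 in at least 1 library was found for 13 chains.

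**Figure D1:**
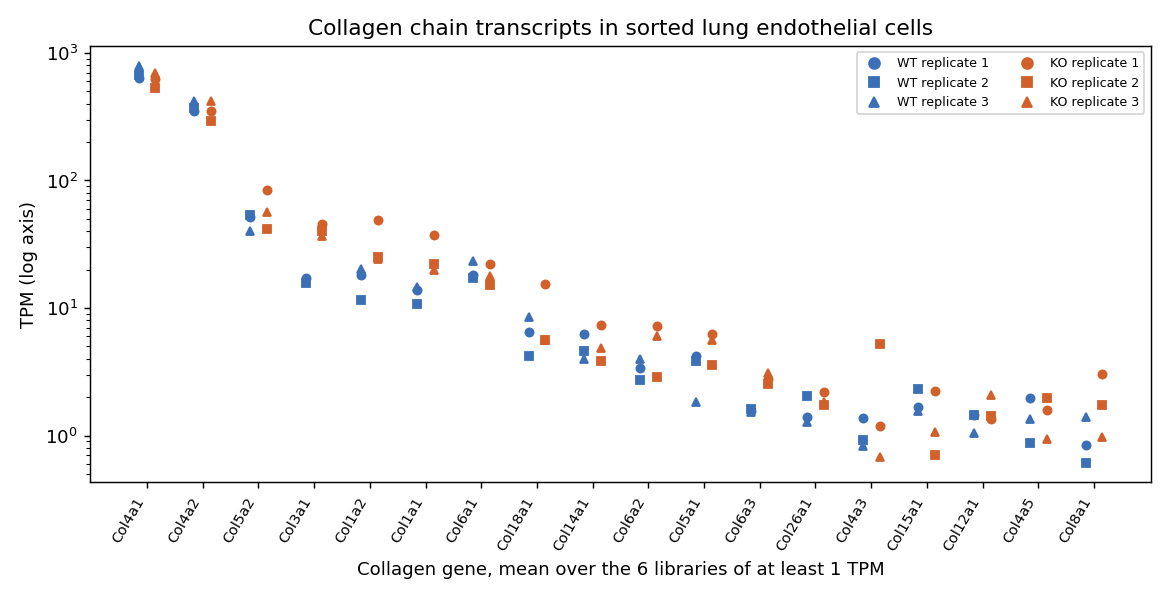
TPM on a log axis for the 18 collagen genes with a mean of at least 1 TPM over the 6 libraries, one point per library, blue for libraries labelled WT and orange for those labelled KO. Col4a1 and Col4a2 lie apart from all others, and the orange points of Col3a1 lie above its blue points.

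Summed over all 44 genes, collagen RNA was at 1139, 1178 and 1362 TPM under WT and 1273, 1008 and 1315 TPM under KO, so the totals of the labels overlapped. Col4a1 and Col4a2 together held 86.5%, 88.3% and 89.2% of the sum under WT and 76.9%, 82.2% and 85.3% under KO, which put every library labelled KO below every library labelled WT. The type I and type III chains Col1a1, Col1a2 and Col3a1 held 4.35%, 3.23% and 3.77% under WT and 10.4%, 8.64% and 6.16% under KO. All 11 fibrillar chains summed to 98.8 ± 6.096 TPM under WT and 168 ± 48.2 TPM under KO (mean ± SD over 3 libraries), the 8 basement membrane chains to 1092 ± 121 and 991 ± 144 TPM, and the 25 other chains to 35.7 ± 3.73 and 39.99 ± 9.55 TPM. These sums are descriptions and were not tested. In RNA from many cells, more cells of a type and more RNA per cell cannot be told apart.

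Col3a1 was the 1 collagen gene past the threshold of 0.05 on the adjusted p, which 5 of 14667 tested genes passed (0.0341%). It encodes the single chain of type III collagen, which forms fine reticular fibrils in vessel walls and lung (ENSMUSG00000026043, mm10 chromosome 1, 45311538 to 45349706, plus strand). The gene had 1910, 1556 and 2290 counts under WT and 4262, 4005 and 3647 under KO. Scaled to library size these were 58.1, 52.7 and 60.7 CPM and 144, 132 and 123 CPM. Every library labelled KO held more than 2 times as much as any library labelled WT, and the spread within each label was small. The level rose from 57.2 ± 4.103 to 133 ± 10.4 CPM (mean ± SD over 3 libraries), 2.33-fold (log2 fold change 1.22, SE 0.11, adjusted p = 0.0223). The call rests on all 6 libraries: the adjusted p was 0.293, 0.103 and 0.174 without WT replicate 1, 2 or 3 and 0.0781, 0.1003 and 0.116 without KO replicate 1, 2 or 3, while the log2 fold change kept to 1.16 to 1.27. With sex as a covariate the adjusted p was 0.0591. Of the 9816 exon bases of Col3a1, 141 are shared with Gm47302 on the same strand.

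Sequence before the RefSeq start is shown for 3 chains whose labels did not overlap, Col3a1, Col1a2 and Col6a3, because DNMT3A acts on CG dinucleotides and their number differs between these stretches. Such a lack of overlap was found for 20.3% of all tested genes. The sequence was read from the RefSeq promoter table (build GRCm38.p6, the assembly of mm10), which holds no window for Col1a1, the other tested chain without overlap. Capitals mark matches to 3 promoter motifs searched for, which are TATAAA near many transcription starts, then CCAAT as bound by nuclear factor Y, and lastly GGGCGG as bound by Sp1 family proteins, each found on either strand, and none of these motifs overlaps another here. The Col3a1 stretch is chr1:45311288-45311537 on the plus strand, the Col6a3 stretch chr1:90843972-90844221 on the minus strand, each the 250 bases before the annotated start. The Col1a2 stretch, chr6:4505370-4505492 on the plus strand, covers bases 248 to 126 before the RefSeq start. It lies inside the gene as GENCODE M21 annotates it, between exons of longer Col1a2 transcripts, whereas the stretches of Col3a1 and Col6a3 lie outside theirs.
Col3a1: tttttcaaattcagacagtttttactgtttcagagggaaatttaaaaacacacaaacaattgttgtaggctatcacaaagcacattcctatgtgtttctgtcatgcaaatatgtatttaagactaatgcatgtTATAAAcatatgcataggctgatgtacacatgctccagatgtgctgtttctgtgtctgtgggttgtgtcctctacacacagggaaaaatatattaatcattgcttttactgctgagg
Col1a2: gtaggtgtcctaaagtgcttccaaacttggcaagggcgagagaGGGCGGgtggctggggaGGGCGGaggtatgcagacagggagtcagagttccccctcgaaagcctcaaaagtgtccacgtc
Col6a3: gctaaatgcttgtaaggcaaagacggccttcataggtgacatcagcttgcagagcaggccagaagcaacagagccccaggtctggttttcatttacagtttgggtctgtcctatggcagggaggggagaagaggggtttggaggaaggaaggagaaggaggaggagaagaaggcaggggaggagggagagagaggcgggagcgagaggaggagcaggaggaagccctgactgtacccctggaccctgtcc
The Col3a1 stretch holds 0 CG sites and 1 TATAAA, the Col1a2 stretch 5 CG sites and 2 copies of GGGCGG, and the Col6a3 stretch 3 CG sites and none of the 3 motifs.

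In the whole 300-base windows of the table (250 bases before to 50 after a start), Col3a1 held 0 CG sites, Col6a3 3 and Col1a2 13, against 37 and 33 for Col4a1 and Col4a2, whose starts face away from each other with 22 bases shared. Of all 32851 windows, 5.43% held no CG site and the median was 7. The 38 windows that belong to 35 of the 44 collagen genes had a median of 11.5, and those of Col3a1, Col28a1 and 1 of the 2 of Col9a1 held none. The median share of G and C bases was 59.8% in the collagen windows and 52.7% in all windows. TATAAA occurred in 5 collagen windows (13.2%, against 13.6% of all windows) and CCAAT in 13 (34.2% against 37.4%). GGGCGG, made of G and C alone, occurred in 23 (60.5% against 35.7%). These are letter matches in 1 reference genome and say nothing about methylation or binding in these cells.

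The chains of type I collagen, the main fibril protein of connective tissue, lay higher under KO without passing the test. Col1a1, the α1 chain (ENSMUSG00000001506, mm10 chromosome 11, 94936224 to 94953042, plus strand), was at 49.97, 37.9 and 56.3 CPM under WT and 127, 78.2 and 70.3 CPM under KO. Its labels did not overlap, and the mean was 48.1 ± 9.36 CPM under WT and 91.7 ± 30.5 CPM under KO (log2 fold change 0.93, SE 0.25, adjusted p = 0.293). Col1a2, the α2 chain (ENSMUSG00000029661, mm10 chromosome 6, 4504814 to 4541544, plus strand), was at 57.2, 35.9 and 68.7 CPM and 144, 77.7 and 75.5 CPM in the same order, also without overlap (log2 fold change 0.88, SE 0.32, adjusted p = 0.342). For both, KO replicate 1 stood far above KO replicates 2 and 3. Without that library the log2 fold change was 0.62 for Col1a1 and 0.50 for Col1a2. DESeq2, run as an alternative, called Col1a1 (adjusted p = 0.0229) and not Col1a2 (adjusted p = 0.109).

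Type V collagen, whose chains start and limit the width of type I fibrils, lay closer between the labels. Col5a2, the most abundant fibrillar chain here, lies on chromosome 1 beside Col3a1, tail to tail and 24614 bases away. It was at 206, 214 and 174 CPM under WT and 315, 166 and 228 CPM under KO, so the labels overlapped (log2 fold change 0.26, SE 0.23, adjusted p = 0.657). The highest value was again KO replicate 1, and without it the log2 fold change was -0.012. Col5a1 was at 20.97, 19.2 and 10.1 CPM and 29.9, 17.9 and 28.04 CPM, with WT replicate 3 lowest (log2 fold change 0.60, SE 0.31, adjusted p = 0.456). The third type V chain, Col5a3, had 0 to 25 counts per library and was not tested. Whether the difference of Col3a1 exceeded that of its neighbour was not tested.

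The remaining fibrillar chains were scarce. Col27a1 and Col24a1, the chains of 2 minor fibrillar types, had 47 to 136 and 4 to 70 counts per library and differed by 0.53 (SE 0.43) and 1.35 (SE 0.78) on the log2 scale. The cartilage chains Col2a1 and Col11a2 had 0 to 30 and 7 to 57 counts (log2 fold changes 0.19, SE 1.47, and 0.74, SE 0.79), and Col11a1, at 0 to 9 counts, was not tested. All 4 of the tested ones overlapped between the labels, and their standard errors reached 1.47 on the log2 scale.

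**Figure D2:**
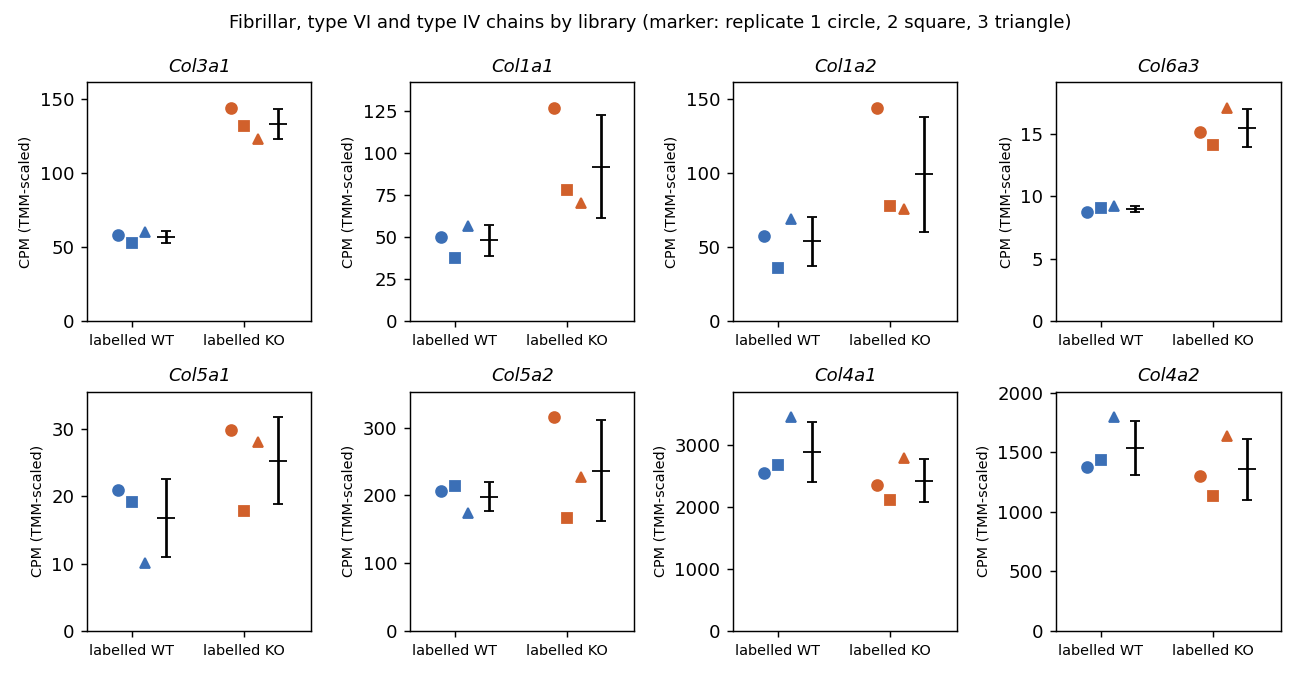
CPM (TMM-scaled, linear axes from 0) of 8 collagen genes in each library, with the mean and SD (n = 3) beside the points of each label. Col3a1, Col1a1, Col1a2 and Col6a3 do not overlap between the labels, whereas Col5a1, Col5a2, Col4a1 and Col4a2 do.

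Among the basement membrane chains none passed the test and none separated the labels. Col4a1 (ENSMUSG00000031502, mm10 chromosome 8, 11198423 to 11312826, minus strand) was at 2544, 2674 and 3449.7 CPM under WT and 2365, 2122 and 2799.9 CPM under KO (mean 2889 ± 489.9 and 2429 ± 344 CPM, log2 fold change -0.25, SE 0.17, adjusted p = 0.555). Col4a2 (ENSMUSG00000031503, mm10 chromosome 8, 11312805 to 11449287, plus strand) was at 1376, 1433 and 1795 CPM and 1298, 1136 and 1636 CPM (log2 fold change -0.18, SE 0.18, adjusted p = 0.694). The 2 genes kept the same order of libraries within each label, with replicate 3 highest. The 22 bases that the 2 genes share are 0.295% of the exon bases of Col4a1 and 0.332% of those of Col4a2.

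The other type IV chains, which replace α1 and α2 in specialised membranes such as those of kidney glomeruli and lung alveoli, were scarce. Col4a3 had 237, 142 and 179 counts under WT and 175, 821 and 106 under KO. KO replicate 2 alone stood high: the log2 fold change was 1.13 (SE 0.71, adjusted p = 0.524) with it and -0.23 without it. An antisense gene not analysed here, C430014B12Rik, covers 563 of the exon bases of Col4a3, and reads of the 2 are not told apart where strand is not kept. Col4a4 starts 71 bases from Col4a3 in the other direction. It had 97, 57 and 91 counts under WT and 35, 85 and 51 under KO (log2 fold change -0.35, SE 0.43). KO replicate 2 was its highest KO library but lay below WT replicate 1. On the X chromosome, Col4a5 had 102 to 255 counts (log2 fold change 0.042, SE 0.39) and Col4a6 9 to 78 (log2 fold change 0.25, SE 0.89). Among the KO libraries both were also highest in replicate 2, at 232 and 78 counts.

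The multiplexins, collagens of the basement membrane zone that carry glycosaminoglycan chains, were at intermediate levels. Col18a1, whose C-terminal fragment is endostatin, an inhibitor of vessel growth, was at 19.96, 12.8 and 28.003 CPM under WT and 44.4, 16.8 and 16.998 CPM under KO (log2 fold change 0.36, SE 0.44, adjusted p = 0.756). KO replicate 1 was the highest library, and without it the value was -0.26. Col15a1 was at 5.203, 7.28 and 5.38 CPM and 6.76, 2.25 and 3.42 CPM (log2 fold change -0.52, SE 0.43, adjusted p = 0.627), with KO replicates 2 and 3 lowest and KO replicate 1 within the WT range.

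Type VI collagen forms beaded filaments between basement membranes and the matrix around them, from the α1, α2 and α3 chains in equal number. Col6a3, the long α3 chain (ENSMUSG00000048126, mm10 chromosome 1, 90765923 to 90843971, minus strand), was at 8.73, 9.07 and 9.23 CPM under WT and 15.1, 14.1 and 17.1 CPM under KO. Its labels were apart with little spread, 9.01 ± 0.253 against 15.4 ± 1.504 CPM, but the test was not passed (log2 fold change 0.78, SE 0.17, adjusted p = 0.2396). DESeq2 called it (adjusted p = 0.00921). Col6a1, the most abundant of them per length, was at 42.4, 40.1 and 59.2 CPM and 49.03, 35.1 and 42.1 CPM, with overlap (log2 fold change -0.17, SE 0.19, adjusted p = 0.741). Col6a2 was at 7.49, 5.96 and 9.47 CPM and 14.9, 6.27 and 13.1 CPM (log2 fold change 0.58, SE 0.35, adjusted p = 0.512), where KO replicate 2 fell inside the WT range. The later-found type VI chains Col6a4, Col6a5 and Col6a6 had 1 to 30, 0 to 47 and 0 to 17 counts per library. The first of these differed by 0.99 on the log2 scale (SE 1.17), the second by -0.72 (SE 1.501), and Col6a6 was not tested.

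Collagens that sit on the surface of fibrils were led by Col14a1 and Col12a1. Col14a1 was at 24.2, 17.8 and 16.8 CPM under WT and 26.7, 14.5 and 18.3 CPM under KO (log2 fold change 0.019, SE 0.26), and Col12a1 at 9.68, 9.48 and 7.45 and 7.81, 9.28 and 13.1 CPM (log2 fold change 0.18, SE 0.25). Both overlapped between the labels. Col9a3, a chain of the cartilage type IX, had 4 to 21 counts (log2 fold change 0.83, SE 0.68), and 234 of its exon bases also belong to Tcfl5 on the other strand. The other members of this class were at the limit of detection: Col9a1 had 0 to 12 counts, Col9a2 0 to 2, Col16a1 2 to 37, Col19a1 0 to 5, Col20a1 0 to 6 and Col22a1 0 to 2. None of these 6 was tested.

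Type VIII collagen, a network former of endothelium and vessel walls, was represented by Col8a1 at 2.59, 1.896 and 4.69 CPM under WT and 8.76, 5.32 and 2.98 CPM under KO (log2 fold change 0.89, SE 0.50, adjusted p = 0.482). The highest library was KO replicate 1 and the labels overlapped. Its partner Col8a2 had 2 to 37 counts per library (log2 fold change 0.48, SE 1.13), and Col10a1, the related chain of growth cartilage, 5 to 15 counts, untested. Of the transmembrane collagens, Col25a1 had 48, 44 and 124 counts under WT and 11, 32 and 49 under KO (log2 fold change -1.01, SE 0.63, adjusted p = 0.524), with WT replicate 3 far above the rest. Col23a1 ranged over 0 to 79 counts (log2 fold change 0.72, SE 1.56) and Col17a1, of epithelial hemidesmosomes, over 1 to 26 counts (log2 fold change 0.088, SE 0.98), while Col13a1, at 0 to 21 counts, was not tested. Col26a1 was at 2.22, 3.25 and 2.201 CPM and 3.28, 2.74 and 2.91 CPM (log2 fold change 0.22, SE 0.33). Col28a1 had 19 to 59 counts (log2 fold change 0.68, SE 0.53) and Col7a1, the anchoring fibril chain of skin, 0 to 41 counts (log2 fold change 0.81, SE 1.09).

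Counted over the 44 genes, 33 passed the filter on low counts and 11 did not. Of the 33, 1 was called higher and 0 lower, where 0.0341% of all tested genes were called in either direction (0.0205% higher, 0.0136% lower). By DESeq2 3 of 36 were higher and 0 lower (Col3a1, Col1a1 and Col6a3), where that tool called 2.68% of the genes it tested (1.41% higher, 1.27% lower). At an unadjusted p under 0.05 there were 4 of 33 (12.1%), all higher, against 12.6% of all tested genes (6.88% higher, 5.77% lower), and 4 of 33 (12.1%) did not overlap between the labels, against 20.3% of all tested genes. Neither share of the chains was above the background. All 4 lay on the higher side, which 10.9% of all tested genes did without overlap. By class, 3 of 9 tested fibrillar chains, 0 of 8 basement membrane chains and 1 of 16 tested other chains did not overlap. The median log2 fold change was 0.74 for the fibrillar chains (9 of 9 positive), -0.068 for the basement membrane chains (4 of 8) and 0.53 for the other tested chains (13 of 16), beside 0.0086 for all tested genes (50.9% positive). Those medians cover only chains that passed the filter, many with few counts, and were not tested.

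**Figure D3:**
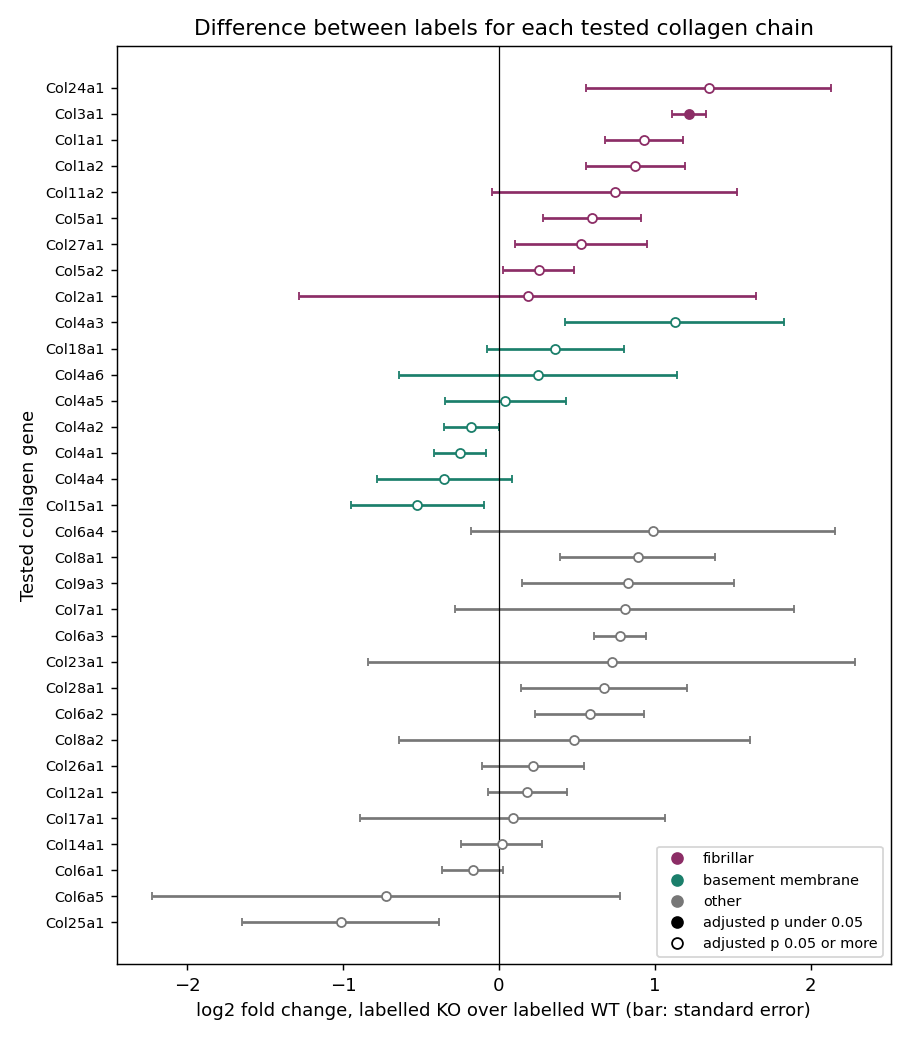
Log2 fold change (labelled KO over labelled WT, with its standard error) of the 33 collagen genes that passed the filter, in 3 classes and ordered by size within each. The filled point is Col3a1, the 1 gene with an adjusted p under 0.05, and the longest bars belong to genes with few counts.

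One library contributed many of the high values. Among the 18 chains with a mean of at least 1 TPM, KO replicate 1 was the highest library for 10 and the lowest for 0, while WT replicate 2 was the lowest for 7 and KO replicate 2 for 6. Without KO replicate 1 the log2 fold change was 1.16 for Col3a1 and 0.78 for Col6a3, close to the values with it. For Col8a1 it was 0.43, and Col1a1, Col1a2, Col5a2 and Col18a1 were also lower without that library.

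Since collagen molecules need their chains in fixed proportions, the ratio of TPM between chains was compared within each library for 4 pairs. With 3 libraries against 3 the exact permutation test cannot give a p below 0.1, so it cannot pass 0.05. The type IV protomer holds 2 α1 chains for each α2 chain. Col4a1 over Col4a2 was 1.8001, 1.82 and 1.87 under WT and 1.77, 1.82 and 1.67 under KO, the narrowest range of the pairs (log2 difference -0.062, two-sided exact permutation p = 0.3, 0.4 adjusted over 4 pairs). The type I molecule also holds 2 α1 chains for each α2 chain. Col1a1 over Col1a2 was 0.765, 0.924 and 0.718 under WT and 0.771, 0.8802 and 0.815 under KO, below 1 in every library (log2 difference 0.041, exact permutation p = 0.7, adjusted 0.7). Col3a1 over Col1a1, which compares type III with type I, was 1.24, 1.49 and 1.15 under WT and 1.22, 1.81 and 1.88 under KO, with KO replicate 1 inside the WT range (log2 difference 0.32, exact permutation p = 0.3, adjusted 0.4). Col6a1 over Col6a2 was 5.31, 6.28 and 5.86 under WT and 3.07, 5.23 and 2.997 under KO (log2 difference -0.67, exact permutation p = 0.1, adjusted 0.4). Every library labelled KO had a lower Col6a1 to Col6a2 ratio than every library labelled WT, which is the smallest p this design allows. RNA ratios do not give the proportions of the proteins.

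**Figure D4:**
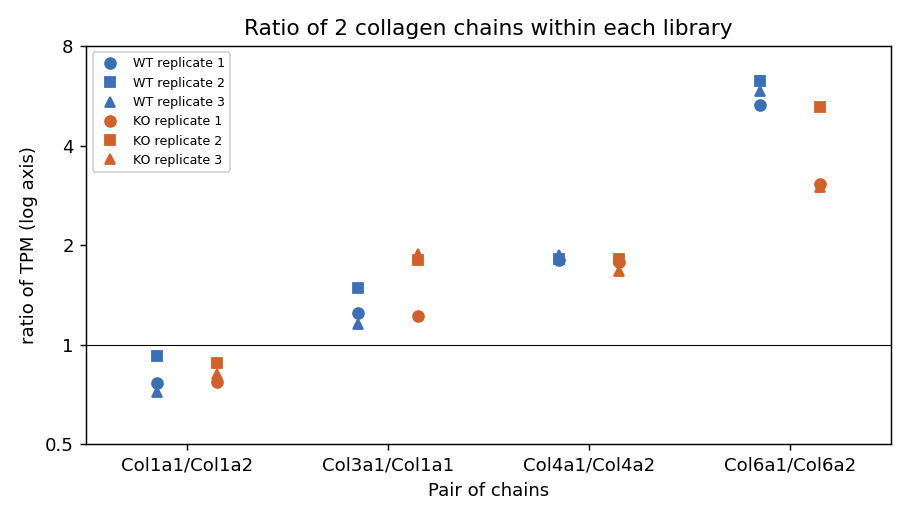
Ratio of TPM between 2 collagen chains within each library (log axis, line at 1), blue for libraries labelled WT and orange for those labelled KO. The Col4a1 to Col4a2 ratio stays between 1.67 and 1.87 in all 6 libraries, and the Col6a1 to Col6a2 ratio is lower in each library labelled KO than in any labelled WT.

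The genes that modify, fold and export collagen come from a list of 55 pathway genes, chosen with earlier results of these data known, of which none passed edgeR's test. Prolyl hydroxylation stabilises the triple helix, and its most abundant genes were Ppib (363 ± 37.4 CPM under WT and 323 ± 30.1 CPM under KO, log2 fold change -0.17, SE 0.13), P4hb (778 ± 121 and 656 ± 5.27 CPM, log2 fold change -0.24, SE 0.14) and P4ha1 (log2 fold change -0.32, SE 0.21). The lysyl hydroxylases Plod1 and Plod3 and the collagen galactosyltransferase Colgalt1 had log2 fold changes of -0.29 (SE 0.20), -0.14 (SE 0.15) and 0.11 (SE 0.12). In the folding and secretion class 4 of 7 genes lay lower under KO without overlap, where 9.42% of all tested genes did. Serpinh1, which encodes HSP47, was at 1794, 2169.5 and 2353 CPM under WT and 1527, 1309.7 and 1616 CPM under KO (log2 fold change -0.50, SE 0.15, adjusted p = 0.3005). Fkbp10, a prolyl isomerase of the same compartment, was at 189, 248 and 282 and 189, 133 and 163 CPM (log2 fold change -0.57, SE 0.19, adjusted p = 0.327); its KO replicate 1 lay just under WT replicate 1. The third most abundant, Mia3, encodes TANGO1, which loads collagen into vesicles, and was at 132, 134 and 139 and 137, 143 and 129.9 CPM (log2 fold change 0.016, SE 0.098).

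The other 2 without overlap were picked out after their values were seen. Sec23a, a coat protein of the vesicles that carry procollagen, was at 76.7, 101.1 and 99.4 CPM under WT and 60.8, 35.2 and 50.5 CPM under KO (log2 fold change -0.92, SE 0.21, adjusted p = 0.274). Creb3l1, a transcription factor of collagen-secreting cells, was at 8.79, 6.13 and 10.9 and 4.06, 5.61 and 4.71 CPM (log2 fold change -0.85, SE 0.29, adjusted p = 0.329). DESeq2 called Sec23a (adjusted p = 0.00562) and Serpinh1 (0.0408) lower.

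Outside the cell, the propeptides of fibrillar procollagens are cut off by Bmp1 and its relatives and by ADAMTS proteases. The 3 most abundant genes of this class were Bmp1 (log2 fold change -0.044, SE 0.18), Pcolce, an enhancer of that cleavage (-0.96, SE 0.46), and its relative Pcolce2. Pcolce was at 10.65, 8.46 and 26.04 CPM under WT and 10.72, 6.37 and 6.16 CPM under KO, with WT replicate 3 far above the rest. Its log2 fold change was -1.27 to -0.30 when a library was left out. Pcolce2 was at 2.62, 2.74 and 1.14 CPM under WT and 7.0001, 7.69 and 6.704 CPM under KO, without overlap (log2 fold change 1.72, SE 0.38, adjusted p = 0.251). Picked out after their values were seen, Tll1, a close relative of Bmp1, was at 7.699, 4.77 and 3.58 and 19.9, 9.91 and 15.9 CPM (log2 fold change 1.51, SE 0.37, adjusted p = 0.282), and Adamts2, an amino-propeptidase of types I and III, had 0, 0 and 0 counts under WT and 25, 50 and 13 under KO. The mean Adamts2 level under KO was 0.979 CPM, 10.8-fold the mean WT floor of 0.0908 CPM set by 3 counts per library. The single libraries labelled KO held 0.845, 1.65 and 0.440 CPM, and edgeR's adjusted p was 0.233. DESeq2 called Pcolce2, Tll1 and Adamts2 higher (adjusted p = 0.00329, 0.00738 and 0.000911).

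Among the cross-linking genes none passed the test. Pxdn, the peroxidase that joins type IV collagen molecules, was the most abundant at 674 ± 61.5 CPM under WT and 664 ± 49.7 CPM under KO (log2 fold change -0.020, SE 0.12), and Loxl2, a lysyl oxidase, was next (log2 fold change -0.029, SE 0.12). Loxl3 was at 20.9, 26.7 and 25.7 CPM and 16.6, 17.2 and 18.5 CPM, lower without overlap (log2 fold change -0.49, SE 0.15, adjusted p = 0.319). Lox, the lysyl oxidase of fibrillar collagen and elastin and chosen here after its values were seen, was at 2.68, 4.03 and 5.17 and 19.95, 7.96 and 5.82 CPM, with KO replicate 1 highest (log2 fold change 1.504, SE 0.50, adjusted p = 0.327).

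The small proteoglycans that bind fibrils were led by Bgn, at 184, 182 and 327 CPM under WT and 269, 150.2 and 211 CPM under KO (log2 fold change -0.14, SE 0.29). Aspn followed at 17.8, 4.71 and 23.4 and 40.9, 41.2 and 33.8 CPM, without overlap (log2 fold change 1.33, SE 0.49, adjusted p = 0.351), and Prelp at 14.9, 14.7 and 11.8 and 17.5, 15.8 and 16.7 CPM (log2 fold change 0.27, SE 0.16). Dcn, a proteoglycan that binds type I fibrils, also among the fibroblast markers and chosen after its values were seen, stood at 4, 4 and 8 counts under WT and 78, 78 and 73 under KO (log2 fold change 3.99, SE 0.46, adjusted p = 0.0819). DESeq2 called Dcn higher (adjusted p = 1.12e-07). The integrin receptors of collagen pair the β chain Itgb1 with an α chain such as Itga1 or Itga2, and these 3 had log2 fold changes of -0.057 (SE 0.17), 0.18 (SE 0.27) and -0.28 (SE 0.12). Over all 54 tested pathway genes 0 were called by edgeR, 14 had an unadjusted p under 0.05 (8 higher, 6 lower; 25.9% against 12.6% of all tested genes), and DESeq2 called 4 higher and 2 lower (11.1% against 2.68%). Without overlap lay 10 higher and 7 lower (31.5% against 20.3%), and the median log2 fold change was 0.0088, beside 0.0086 for all tested genes. The pathway list was chosen with earlier results of these data known. Its shares, and that of the folding and secretion class, are therefore descriptions and test nothing.

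Fibrillar collagens are made mainly by fibroblasts and other mesenchymal cells. Markers of fibroblasts and of mural cells (pericytes and smooth muscle), without collagen genes, were therefore read beside them. These marker lists were chosen with earlier results of these data known. Their shares beside those of all tested genes are therefore descriptions and test nothing. The 15 fibroblast markers summed to 66.3, 55.8 and 79.1 CPM under WT and 89.7, 100.2 and 78.96 CPM under KO. Of the 14 tested, 6 lay higher without overlap (Dcn, Inmt, Npnt, Dpt, Fbln1 and Mfap5), which is 42.9% against 10.9% of all tested genes. By edgeR 0 were called and 4 had an unadjusted p under 0.05, all higher (28.6% against 6.88%), and DESeq2 called 3 higher (21.4% against 1.41%). Pdgfra, the receptor that marks lung fibroblasts, overlapped at 8.58, 11.3 and 6.84 and 6.63, 10.4 and 16.9 CPM, as did the fibroblast transcription factor Tcf21 at 3.04, 2.57 and 5.28 and 2.91, 4.79 and 0.4402 CPM. The sums of the labels overlapped only through WT replicate 3 and KO replicate 3, and Mfap4, the most abundant marker, was at 30.003, 25.2 and 39.8 CPM under WT and 32.1, 32.9 and 25.8 CPM under KO. Without Mfap4, left out after its values were seen, the other 14 markers summed to 36.3, 30.7 and 39.2 CPM under WT. Under KO they summed to 57.6, 67.3 and 53.2 CPM. The labels did not overlap in this sum only because of that choice, and the sum was not tested. The 13 pericyte and smooth muscle markers summed to 362, 128 and 517 CPM under WT and 618, 552 and 145 CPM under KO, with overlap in all 13. Within each label, Col3a1, Col1a1 and Col1a2 ranked the libraries in the same order as this sum, whereas Col5a1, Col5a2 and Col6a3 did not. Col3a1 was at 58.1, 52.7 and 60.7 CPM under WT and 144, 132 and 123 CPM under KO. No marker of either list was at 0 in all libraries. The part of these cells in the collagen values was not tested.

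**Figure D5:**
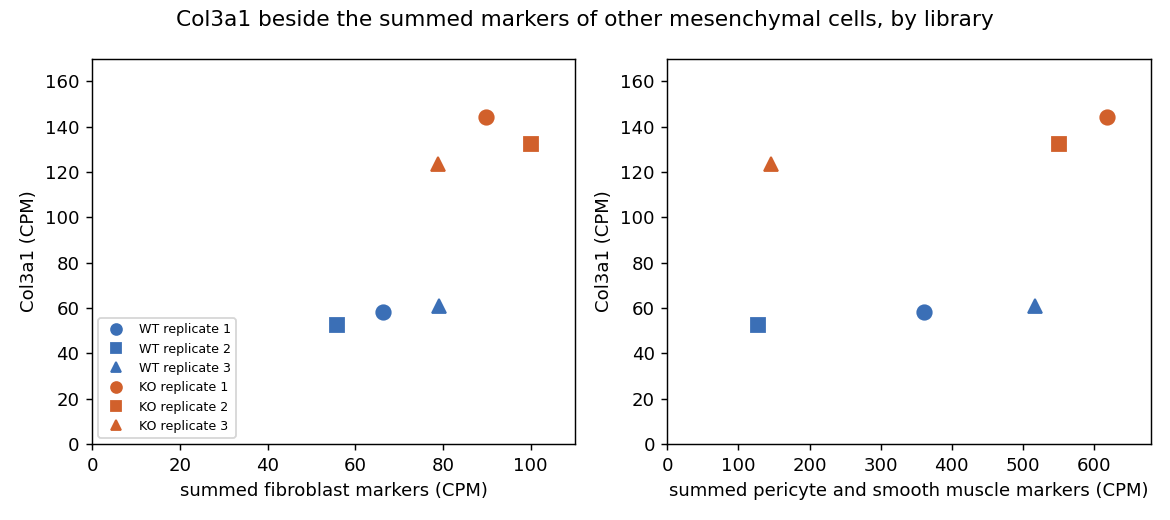
Col3a1 (CPM) against the summed level of 15 fibroblast markers (left) and 13 pericyte and smooth muscle markers (right), one point per library, with marker shapes for replicates. The libraries labelled KO lie at 123 to 144 CPM of Col3a1 and those labelled WT at 52.7 to 60.7 CPM. The fibroblast sums of the labels meet only at replicate 3 (79.1 CPM under WT, 78.96 CPM under KO). The mural sums overlap widely between the labels, and within each label they rank the libraries in the same order as Col3a1.

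Epithelial RNA also varied between the libraries. Alveolar type 2 markers, led by Sftpc, summed to 329.6 to 9293 CPM under WT and 764 to 3595 CPM under KO, and alveolar type 1 markers to 44.6 to 217 and 74.4 to 115 CPM. Both were highest in WT replicate 1. The fibroblast, mural, alveolar, airway and leukocyte sums were all lowest in WT replicate 2. The leukocyte sum was mostly Lyz2, at 423, 12.5 and 174 CPM under WT and 182, 122 and 25.4 CPM under KO. Within each label Lyz2 ranked the libraries in the same order as Sftpc (7762, 173 and 3310 CPM under WT, 2927, 1837 and 548 CPM under KO). Which cells this Lyz2 RNA came from was not tested. The other leukocyte markers, Ptprc, Cd68, Cd79a, Cd3e and S100a8, were each highest of the WT libraries in WT replicate 2. Without WT replicate 2, Col3a1 differed by 1.16 on the log2 scale (edgeR adjusted p = 0.103). Of the alveolar type IV chains, Col4a4 was highest in WT replicate 1 (2.95, 1.93 and 2.41 CPM under WT and 1.18, 2.81 and 1.73 CPM under KO), whereas Col4a3 was highest in KO replicate 2. Airway markers summed to 8.06 to 632 and 153 to 328 CPM, leukocyte markers to 24.3 to 429 and 35.9 to 191 CPM, and the 4 mesothelial markers to at most 1.73 CPM. The part of these cells in the collagen values was not tested either.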

How the data were processed

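Per the labels' protocols, RNA was isolated with a PicoPure kit and amplified with a SMARTer low-input kit before paired-end sequencing. Groups and replicate numbers came from the sample titles. The authors deposited estimated counts per gene, in whole numbers and not normalized, and TPM values, whose columns sum to 875864 to 885609. Per the submitters' processing notes kallisto and the build mm10 were used; its version, the annotation, strandedness and how transcripts were summed by gene are not stated in the labels. Symbols, positions and exon lengths were taken from GENCODE M21 (same assembly; 24299 of 24520 identifiers matched). Rounding the estimated counts changed 0 values.

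All genes were tested with edgeR 4.0.16's quasi-likelihood test (R 4.3.3, TMM factors, filterByExpr by group, Benjamini-Hochberg adjustment at 0.05) on 6 libraries with no covariate, after the script had been tested on simulated data. The SE is the log2 fold change divided by the square root of F. Chain ratios were tested by exact permutation over libraries. As alternatives, DESeq2 1.42.0 was run, edgeR with RLE or upper-quartile factors, without its filter or with a mean count of 50 or more, limma 3.58.1 on log2(TPM + 1) and log2(TPM + 0.1) (at least 0.1 TPM in 3 libraries), the replicate number as a block, sex as a covariate, other pseudocounts or counts per exon length for ratios, and leaving out each library. The members, lists and marker sets were chosen with earlier results of these data known. Every chain could be named, and from each pathway class the 3 genes with the highest mean TPM, since none passed the threshold. Libraries held 28136194 to 39999172 counts, and floors of 3 counts cover counting error only. All pairs of libraries differed by more than sampling noise (chi-square over its degrees of freedom from 44.8 to 183).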

Additional observations from a re-analysis of the deposited data

How the results depend on the processing

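The count of called collagen chains, 1 by edgeR, was 3 by DESeq2, 0 with the replicate block, 0 with sex as a covariate and 0 in each of the 6 fits without 1 library. It stayed at 1 with RLE or upper-quartile factors, without the filter, with a mean count of at least 50 and with limma on TPM. The log2 fold change of Col3a1 was 1.16 to 1.29 over all alternatives and 1.16 to 1.27 when a library was left out; with the replicate block it was 1.22 (adjusted p = 0.289) and with sex as a covariate 1.22 (adjusted p = 0.0591; range over the alternatives 2.05e-16 to 0.293). Called genes over the whole table numbered 5, and 407 by DESeq2, 9 with limma on log2(TPM + 0.1), 2 with sex as a covariate, 0 with the replicate block and 1 to 4 without a library. Called pathway genes numbered 0, and 6 by DESeq2 and 1 with limma on log2(TPM + 1) or log2(TPM + 0.1). The gene called in both limma fits was Dcn. Dnmt3a had a log2 fold change of 2.23 with the replicate block (adjusted p = 0.0679). The cause of these changes was not tested. Same-numbered libraries deviated from their group means with correlations of 0.28, -0.053 and -0.17 in replicates 1, 2 and 3, and the libraries did not all correlate best with their own number, so the numbers were not taken as pairs. Under every alternative run, the log2 difference of each chain ratio moved by less than the larger SD of the labels. Leaving out a library moved each pair, at most, by more than the smaller SD. Without a library the log2 difference was -0.034 to 0.15 for Col1a1/Col1a2 and 0.21 to 0.52 for Col3a1/Col1a1. It was -0.089 to -0.026 for Col4a1/Col4a2 and -0.94 to -0.53 for Col6a1/Col6a2. No called chain changed sign. Of the chains, 26 stayed under 1 TPM in every library, where few counts limit the precision. Without Mfap4, an alternative chosen after seeing the data, the fibroblast marker sum was 23.97 CPM higher under KO, and 22.6 CPM higher with it.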
